A study of Saccharomyces cerevisiae with 7 samples.

Results

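The phosphate starvation genes of budding yeast followed here are the 10 genes *PHO84*, *PHO89*, *SPL2*, *PHO5*, *PHO11*, *PHO12*, *PHO8*, *VTC1*, *VTC3* and *PHM6*, of 6225 genes on the array. They were chosen by their known control through the transcription factor Pho4 and by their measured values on these 7 arrays, since the high levels of *PHO84*, *PHO89* and *PHO5* in cells that make MTS-GFP were already known. Because measured values took part in the choice, their levels are given as a description, with no test. Each gene had 1 probe with 7 spots, and all 10 were well above background on all 7 arrays.

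The cells were *S. cerevisiae* BY4741, a laboratory strain that lacks *HIS3*, *LEU2*, *MET15* and *URA3*, grown to mid log phase in SC–Ura, a synthetic medium without uracil. The constructs were MTS-GFP, with a mitochondrial targeting signal, and SS-GFP, with a signal that sends it into the endoplasmic reticulum, and GFPm3, a mutant that misfolds, all from the *PYK1* promoter; NES-GFP, with a nuclear export signal, from the *HXT7* promoter; and GFP-Deg, with a degradation signal, and unmodified GFP from the *TDH3* promoter. The control was the empty vector, and all strains, the control included, carried the same multicopy plasmid with *URA3* and a weak *LEU2* allele as markers, whose copy number can differ between constructs. Each construct was measured on 1 one-colour array, so the values have no replicate error, differences between constructs cannot be told apart from differences between single cultures, labellings or hybridizations, and no p-value is given. The arrays of MTS-GFP, NES-GFP, GFPm3 and the empty vector lay on slide 1, and the arrays of GFP-Deg, SS-GFP and GFP on slide 2.

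Yeast cells sense phosphate through the PHO pathway. When phosphate is plentiful, the cyclin and kinase pair Pho80 and Pho85 phosphorylates Pho4 and keeps it out of the nucleus. When phosphate is short, the inhibitor Pho81 blocks the kinase, and Pho4, together with Pho2, switches on genes for phosphate uptake, for secreted phosphatases that release phosphate from organic compounds, and for the storage of phosphate as polyphosphate in the vacuole.

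Levels are given as relative intensity, that is the intensity of a gene divided by the 75th percentile of its array, and are compared between arrays for 1 gene, not between genes. A deviation is the log2 level on an array minus the mean log2 level of all 7. A gene was called changed on an array where this deviation exceeded 1 in either direction, a 2-fold difference. The SD between the spots of a probe, on the log2 scale, was 0.02 to 0.12 for these genes, and covers the measurement on an array only. On each array, 0 yeast spots were saturated, and 97.01% to 98.92% of them stood well above background. The probes of *HIS3* and *MET15*, which the host strain lacks, were well above background on 0 of the 7 arrays.

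Of the 10 genes, 6 were changed in at least 1 array, against 8.96% of all genes, and for 5 of these 6 MTS-GFP was the array with the highest level. In MTS-GFP, *PHO84*, *SPL2*, *PHO89*, *PHM6* and *PHO5* were higher by over 2-fold, 5 of 10 genes, against 2.76% of all genes. *PHO11*, *PHO12*, *PHO8*, *VTC1* and *VTC3* were not changed in that array. Since high values in MTS-GFP were known when the genes were chosen, nothing is read from the difference between these shares. The median deviation of the 10 genes in MTS-GFP was 0.96, and that of all genes was -0.05.

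**Figure D1:**
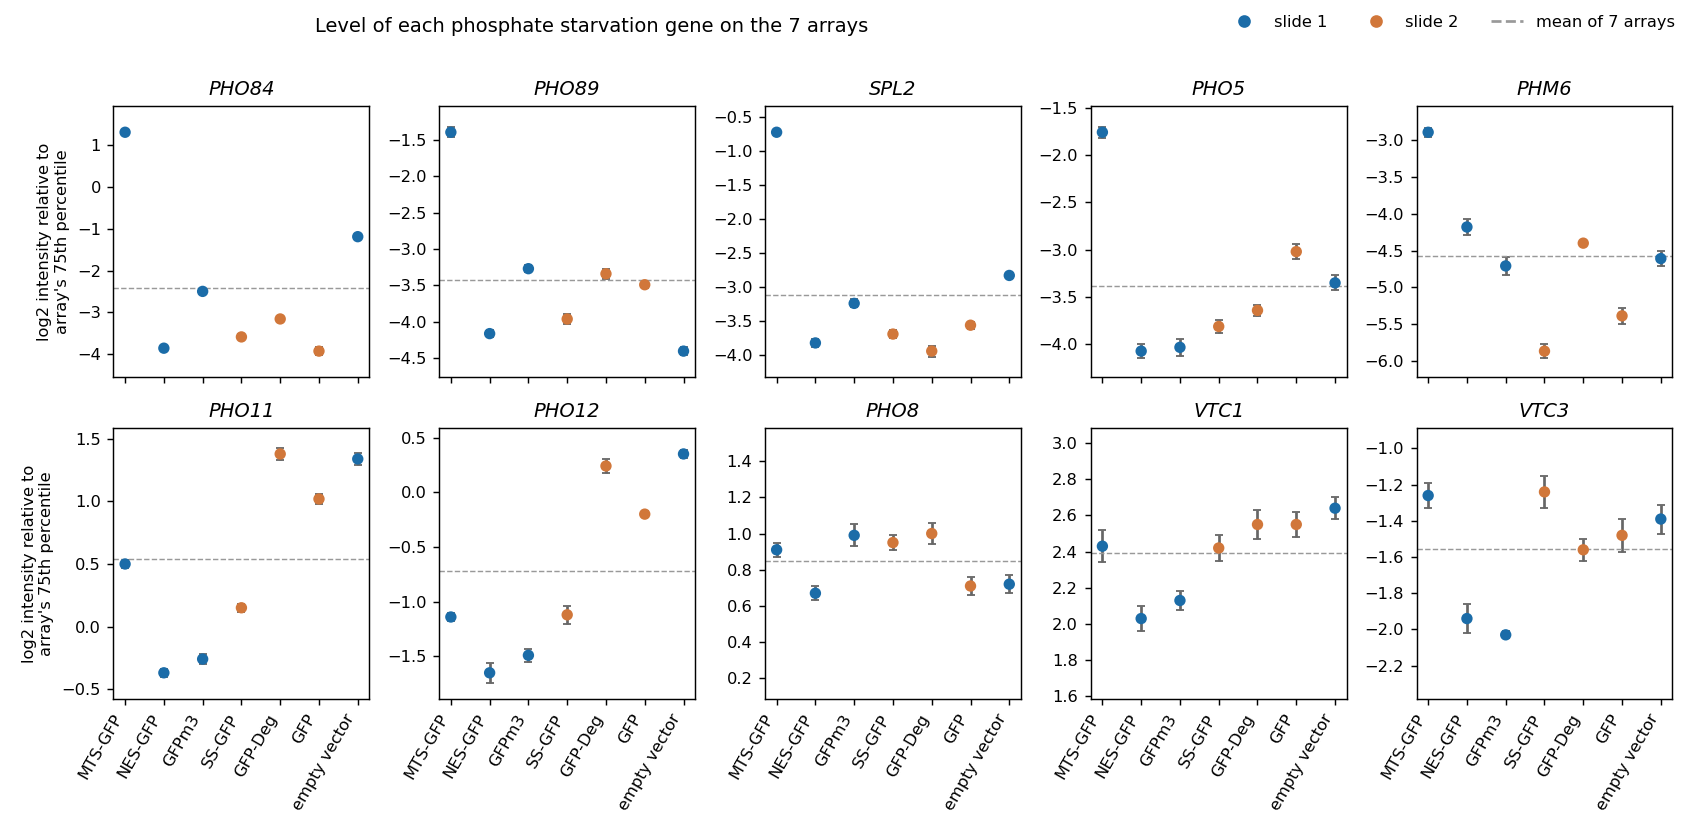
Log2 intensity relative to the 75th percentile of the array (y axis, a separate scale for each gene) on the 7 arrays (x axis), with the slide in colour, the mean of the 7 arrays as a dashed line and the SD between the spots of the probe as bars. The upper 5 genes have their highest point in MTS-GFP, while *PHO8*, *VTC1* and *VTC3* span less than 2-fold over all 7 arrays.

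*PHO84* encodes the main high-affinity phosphate transporter of the plasma membrane. *PHO84* (YML123C) had a relative intensity of 2.47 in MTS-GFP, 0.069 in NES-GFP, 0.177 in GFPm3, 0.0828 in SS-GFP, 0.112 in GFP-Deg, 0.0656 in GFP and 0.438 in the empty vector. MTS-GFP stood highest, the empty vector came next and the other 5 constructs lay below both. The level in MTS-GFP was 5.65-fold that in the empty vector, and the whole range over the 7 arrays was 37.7-fold. The gap between NES-GFP and GFP, the lowest pair, was 0.07 on the log2 scale, within the SD between spots of 0.05 to 0.09 for this probe.

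The deviation of *PHO84* was 3.72 in MTS-GFP, and in that array it ranked 1 of 6225 genes from the top. It was higher by over 2-fold in the empty vector too, with a deviation of 1.23. In that array *PHO12* also passed 2-fold, so that 2 of the 10 genes did, against 0.498% of all genes. *PHO84* was lower by over 2-fold in 3 arrays. In NES-GFP it was the 1 gene of the 10 to be so, with a deviation of -1.44, against 0.675% of all genes. In SS-GFP its deviation was -1.18, and with *PHM6* 2 of the 10 genes were lower there, against 0.739% of all genes. In GFP it was again the 1 gene of the 10 that was lower, at -1.51, against 0.916% of all genes.

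The lower calls of *PHO84* depended on the arrays in the average. With the mean of the 6 arrays other than MTS-GFP as the average, the deviation was -0.82 in NES-GFP, -0.55 in SS-GFP and -0.89 in GFP, all under 2-fold. Relative to the slide 1 mean (4 arrays), *PHO84* was at 2.87 in MTS-GFP, -2.30 in NES-GFP and -0.94 in GFPm3, and the empty vector stood at 0.37, under 2-fold. Relative to the slide 2 mean (3 arrays), it was at -0.03 in SS-GFP, 0.40 in GFP-Deg and -0.37 in GFP.

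*PHO89* encodes the second high-affinity transporter, which takes up phosphate together with sodium. *PHO89* (YBR296C) had a relative intensity of 0.378 in MTS-GFP, 0.056 in NES-GFP, 0.104 in GFPm3, 0.0645 in SS-GFP, 0.099 in GFP-Deg, 0.0891 in GFP and 0.0473 in the empty vector. MTS-GFP was 3.65-fold above GFPm3, the next highest, and the empty vector was the lowest of the 7. This differs from *PHO84*, for which the empty vector was the second highest array. The deviations of *PHO89* were 2.03 in MTS-GFP and -0.97 in the empty vector, just under 2-fold, and its range was 7.99-fold. GFPm3 and GFP-Deg, next to each other in the order, were 0.07 apart on the log2 scale, no more than the SD between spots.

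*SPL2* encodes a small protein that acts on the low-affinity side of phosphate uptake, where it lowers the activity of the transporter Pho87. *SPL2* (YHR136C) had a relative intensity of 0.605 in MTS-GFP, 0.0707 in NES-GFP, 0.106 in GFPm3, 0.0773 in SS-GFP, 0.0649 in GFP-Deg, 0.0845 in GFP and 0.141 in the empty vector. Its 3 highest arrays, MTS-GFP, the empty vector and GFPm3, came in the same order as those of *PHO84*. Its deviation was 2.39 in MTS-GFP, where it ranked 12 of 6225 genes from the top, and 0.29 in the empty vector. MTS-GFP was 4.3-fold above the empty vector, and the range was 9.32-fold.

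*PHM6* encodes a protein of unknown function whose mRNA is known to follow the phosphate supply. *PHM6* (YDR281C) had a relative intensity of 0.135 in MTS-GFP, 0.055 in NES-GFP, 0.0383 in GFPm3, 0.0171 in SS-GFP, 0.0474 in GFP-Deg, 0.0239 in GFP and 0.041 in the empty vector. MTS-GFP was again the highest array and SS-GFP the lowest, with a range of 7.85-fold. The deviation was 1.68 in MTS-GFP and -1.29 in SS-GFP. The lower call in SS-GFP ended against the mean of slide 2, where the deviation was -0.65, and with normexp background correction, where it was -0.87.

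Among the secreted acid phosphatases, *PHO5* encodes the main enzyme that phosphate represses, and *PHO11* and *PHO12* encode a pair of nearly identical enzymes. *PHO5* (YBR093C) had a relative intensity of 0.295 in MTS-GFP, 0.0594 in NES-GFP, 0.0612 in GFPm3, 0.0715 in SS-GFP, 0.0804 in GFP-Deg, 0.123 in GFP and 0.0984 in the empty vector. MTS-GFP was the highest, 2.4-fold above GFP, and NES-GFP and GFPm3 were the lowest and 0.04 apart on the log2 scale. The deviation of *PHO5* in MTS-GFP was 1.62, and its range was 4.98-fold.

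*PHO11* and *PHO12* had another order of arrays. *PHO11* (YAR071W) had a relative intensity of 1.42 in MTS-GFP, 0.773 in NES-GFP, 0.838 in GFPm3, 1.11 in SS-GFP, 2.6 in GFP-Deg, 2.03 in GFP and 2.53 in the empty vector. *PHO12* (YHR215W) had a relative intensity of 0.453 in MTS-GFP, 0.32 in NES-GFP, 0.356 in GFPm3, 0.46 in SS-GFP, 1.18 in GFP-Deg, 0.872 in GFP and 1.28 in the empty vector. For both genes, GFP-Deg, GFP and the empty vector lay above MTS-GFP, NES-GFP, GFPm3 and SS-GFP, and NES-GFP was the lowest. GFP-Deg and the empty vector differed for *PHO11* by 0.04 on the log2 scale, within the SD between spots. The range was 3.37-fold for *PHO11* and 4.0-fold for *PHO12*.

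*PHO12* was higher by over 2-fold in the empty vector, with a deviation of 1.07, and *PHO11*, at 0.80, was not. With the mean of the 6 arrays other than MTS-GFP as the average, *PHO12* in the empty vector was at 1.0, no longer over 2-fold. Against the mean of slide 1, the empty vector stood at 1.04 for *PHO11* and 1.33 for *PHO12*, and MTS-GFP at 0.20 and -0.16. Whether the probes of these near-identical copies, or those of *PHO5* and its neighbour *PHO3*, bind each other's transcripts was not tested.

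The remaining genes moved little. *PHO8*, which encodes the alkaline phosphatase of the vacuole, is the phosphatase of the list that is not secreted. *PHO8* (YDR481C) had a relative intensity of 1.88 in MTS-GFP, 1.59 in NES-GFP, 1.98 in GFPm3, 1.93 in SS-GFP, 1.99 in GFP-Deg, 1.64 in GFP and 1.64 in the empty vector. The whole range was 1.25-fold, and 5 of the 6 steps between neighbours in the order were within the SD between spots, so that the arrays cannot be ranked for this gene.

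*VTC1* and *VTC3* encode subunits of the vacuolar transporter chaperone, the complex that makes polyphosphate. *VTC1* (YER072W) had a relative intensity of 5.39 in MTS-GFP, 4.08 in NES-GFP, 4.38 in GFPm3, 5.34 in SS-GFP, 5.84 in GFP-Deg, 5.86 in GFP and 6.22 in the empty vector. *VTC3* (YPL019C) had a relative intensity of 0.418 in MTS-GFP, 0.261 in NES-GFP, 0.244 in GFPm3, 0.422 in SS-GFP, 0.34 in GFP-Deg, 0.36 in GFP and 0.382 in the empty vector. NES-GFP and GFPm3 were the lowest arrays for both subunits, and the ranges were 1.52-fold for *VTC1* and 1.73-fold for *VTC3*. The deviations of the 3 genes *PHO8*, *VTC1* and *VTC3* lay between -0.48 and 0.31, so none of them passed 2-fold in any array.

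**Figure D2:**
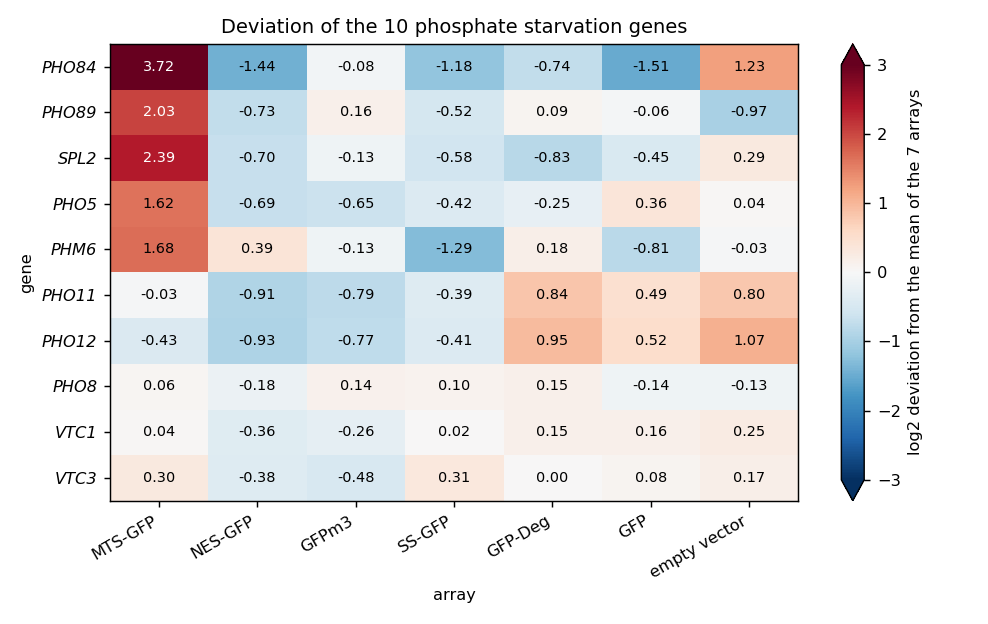
Deviation on the log2 scale (colour and printed value) of the 10 phosphate starvation genes (rows) in the 7 arrays (columns). The column of MTS-GFP holds 5 values over 1, from 1.62 for *PHO5* to 3.72 for *PHO84*, while *PHO11* and *PHO12* have their positive values in GFP-Deg, GFP and the empty vector.

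By array, the median deviation of the 10 genes was 0.96 in MTS-GFP, -0.70 in NES-GFP, -0.19 in GFPm3, -0.42 in SS-GFP, 0.12 in GFP-Deg, 0.01 in GFP and 0.21 in the empty vector. The median of all genes lay between -0.05 and 0.04 in these arrays. In NES-GFP, *PHM6* alone of the 10 genes was above its mean, at 0.39. In GFPm3, 0 of the 10 genes were changed, against 0.851% of all genes higher and 1.17% lower. In GFP-Deg, 0 were changed, against 3% of all genes higher and 1.22% lower. Both counts are near the shares of all genes, and the values nearest to 2-fold were -0.79 for *PHO11* in GFPm3 and 0.95 for *PHO12* in GFP-Deg.

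**Figure D3:**
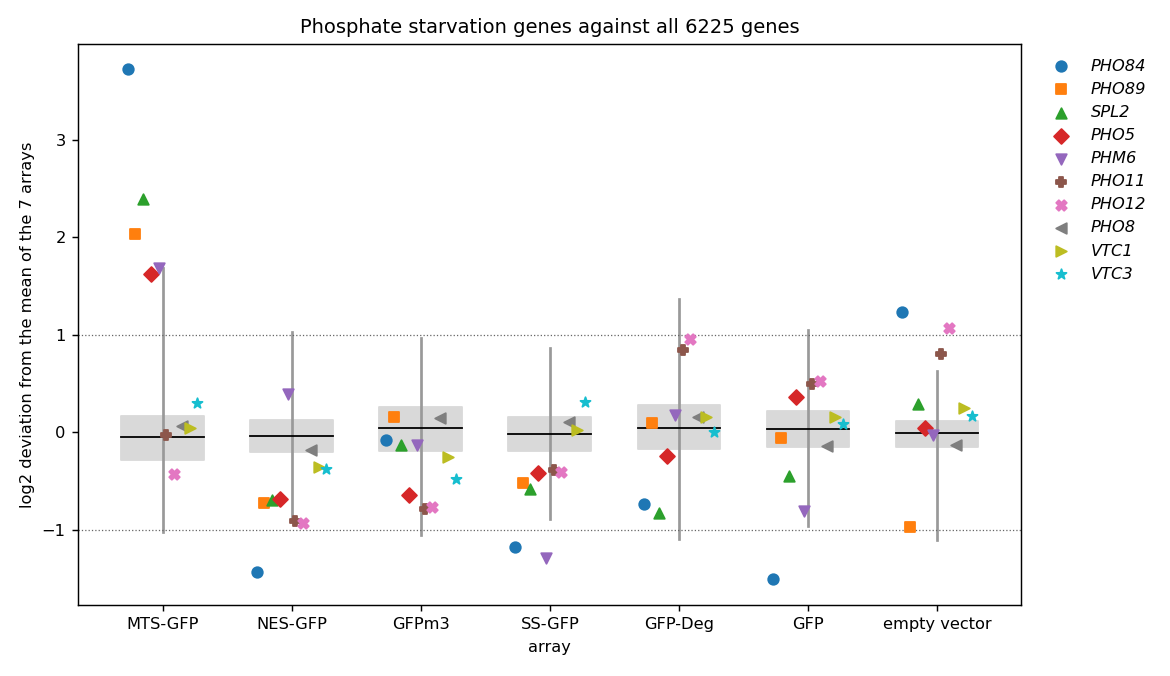
Deviation on the log2 scale (y axis) of each of the 10 genes (symbols) in each array (x axis), over all 6225 genes, whose median is the black line, whose middle 50% is the grey box and whose 1st to 99th percentile is the grey line. *PHO84* lies beyond the end of the grey line in 5 arrays and within it in GFPm3 and GFP-Deg.

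The comparison with the empty vector asks how each GFP construct differs from the control strain. All 6 comparisons share the array of the empty vector, so a gene that was high or low on that array moves in all of them. In MTS-GFP, 5 of the 10 genes were higher than in the empty vector by over 2-fold, against 5.77% of all genes. The high values in MTS-GFP were known when the genes were chosen, so nothing is read from the difference between these shares. On the log2 scale, the differences were 3.0 for *PHO89*, 2.50 for *PHO84*, 2.10 for *SPL2*, 1.71 for *PHM6* and 1.59 for *PHO5*. *PHO12* was lower by over 2-fold, at -1.50, 1 of the 10 genes, against 2.46% of all genes, and *PHO11* was at -0.84.

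*PHO84* was lower than in the empty vector in each of the other 5 constructs. The differences were -2.67 in NES-GFP, -1.31 in GFPm3, -2.40 in SS-GFP, -1.97 in GFP-Deg and -2.74 in GFP. *PHO89* had a positive difference in all 6 constructs, with 0.24 in NES-GFP and 0.45 in SS-GFP as the smallest, its level in the empty vector being the lowest of the 7 arrays. The transporters *PHO84* and *PHO89* thus had differences of opposite sign in 5 of the 6 constructs, and of the same sign in MTS-GFP.

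In NES-GFP, 3 genes were lower than in the empty vector by over 2-fold, namely *PHO84*, *PHO11* and *PHO12*, against 1.14% of all genes. The same 3 genes were lower in GFPm3, against 1.72% of all genes, and *PHO89* was higher there, 1 of the 10 genes, against 3.37% of all genes. In SS-GFP, these 3 genes and *PHM6*, in all 4, were lower, against 1.29% of all genes. In GFP-Deg, *PHO84* and *SPL2* were lower, 2 of the 10 genes, against 1.51% of all genes, and *PHO89* was higher, 1 of the 10, against 5.9% of all genes. In GFP, 1 gene, *PHO84*, was lower, against 1.17% of all genes. The higher calls of *PHO89*, at 1.13 in GFPm3 and 1.07 in GFP-Deg, ended with quantile normalization.

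For *PHO11* and *PHO12*, the differences from the empty vector varied between the constructs. *PHO12* differed by -1.50 in MTS-GFP, -2.00 in NES-GFP, -1.84 in GFPm3 and -1.47 in SS-GFP, but by -0.12 in GFP-Deg and -0.55 in GFP. *PHO11* differed by -1.71 in NES-GFP, -1.60 in GFPm3 and -1.19 in SS-GFP, and by 0.04 in GFP-Deg and -0.32 in GFP. In MTS-GFP it lay between these, at -0.84, under 2-fold. The constructs with the smaller differences are both expressed from the *TDH3* promoter, and promoter and construct cannot be told apart for them. Both lay on slide 2, as did SS-GFP, which is under the *PYK1* promoter. The part of slide, promoter and construct in these differences was not tested.

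MTS-GFP and GFPm3 share the promoter and the slide and differ in the modification of GFP. Between them, 5 of the 10 genes were higher in MTS-GFP by over 2-fold, against 4.58% of all genes. Nothing is read from these shares either, as the choice was made with the MTS-GFP values known. *PHO84* was 14.0-fold higher in MTS-GFP, *SPL2* 5.72-fold, *PHO5* 4.83-fold, *PHO89* 3.65-fold and *PHM6* 3.51-fold. *VTC3* and *PHO11*, at 0.77 and 0.76 on the log2 scale, were nearest to 2-fold of the rest.

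NES-GFP and MTS-GFP lay on slide 1 too, but under different promoters. The same 5 genes were lower in NES-GFP by over 2-fold, 5 of the 10, against 1.14% of all genes, with *PHO84* 35.8-fold lower and *PHM6* 2.45-fold lower. This comparison uses the same MTS-GFP array, so again nothing is read from the shares. GFP-Deg and GFP share the *TDH3* promoter and slide 2. Between them, 0 of the 10 genes passed 2-fold, against 1.53% of all genes higher and 0.53% lower in GFP-Deg, so that 0 is near the share of all genes. The nearest were *PHM6*, with 0.99 on the log2 scale, and *PHO84*, with 0.77.

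Of the rest of the phosphate pathway, 26 other genes in 4 lists were followed, and 24 of them stayed within 2-fold in all 7 arrays, between -0.74 for *VTC5* in SS-GFP and 0.75 for *PHO88* in GFP-Deg. Of the 8 signalling genes, 0 were changed, against 8.96% of all genes changed in at least 1 array. *PHO81*, the kinase inhibitor and itself a known target of Pho4, deviated by 0.37 in MTS-GFP and by between -0.18 and 0.10 in the other arrays. The transcription factor gene *PHO4* had its highest deviation, 0.48, in GFPm3 and was at 0.19 in MTS-GFP. Of 7 other phosphate carriers, among them the low-affinity transporters *PHO87* and *PHO90*, 0 were changed. Of 6 further polyphosphate genes, 0 were changed, and the catalytic subunit gene *VTC4* was at 0.04 in MTS-GFP. Counts of 0 in lists of this size, like the 2 of 26 genes beyond 2-fold, are near the share of all genes. Nothing is read from them.

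**Figure D4:**
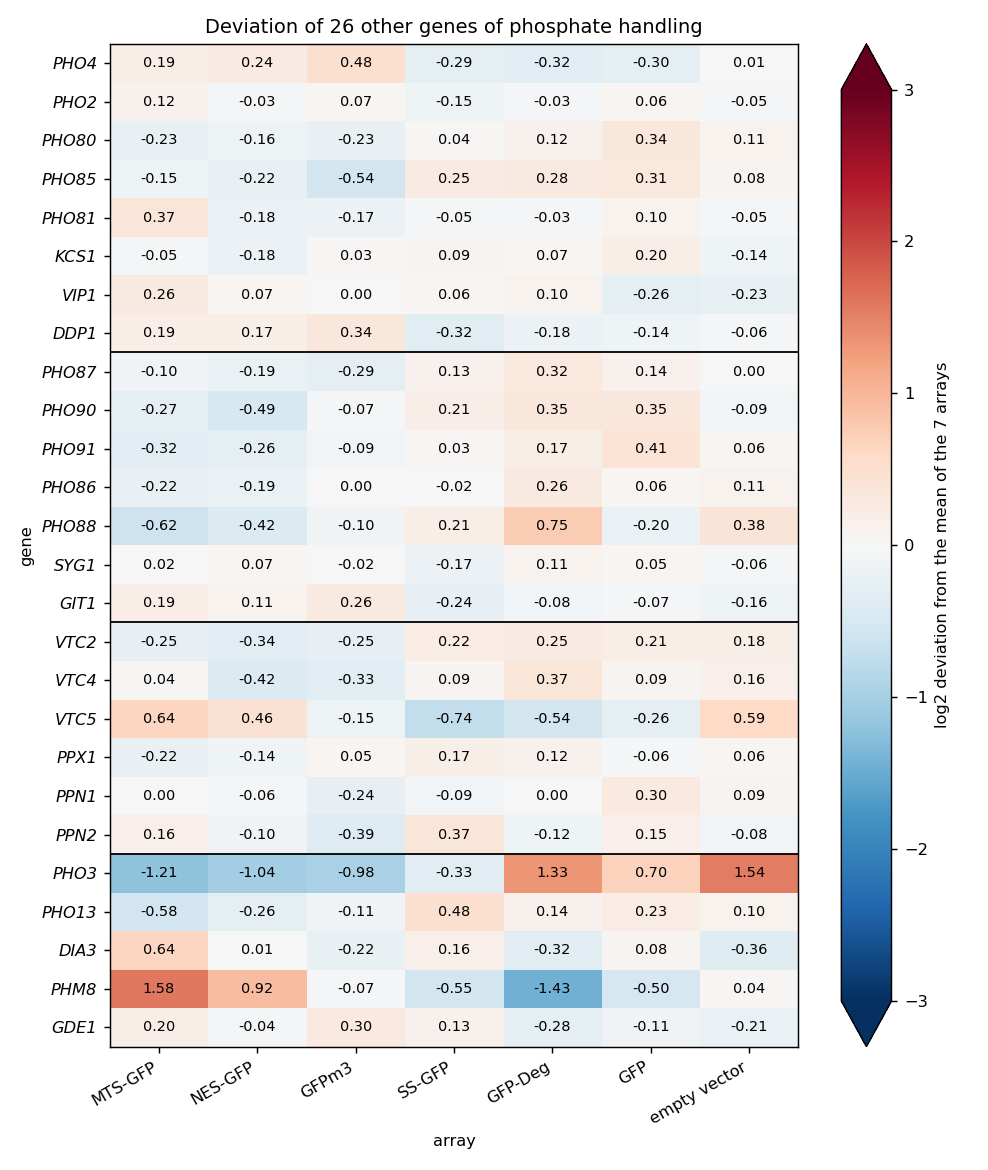
Deviation on the log2 scale (colour and printed value) of 26 other genes of phosphate handling (rows, in the order signalling, carriers, polyphosphate, phosphatases and phosphodiesterases, parted by black lines) in the 7 arrays (columns). *PHO3* and *PHM8* hold all values over 1 in size.

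Of 5 other phosphatases and phosphodiesterases, 2 were changed in at least 1 array, against 8.96% of all genes. The list was chosen with earlier results of these data known, so nothing is read from this count. *PHM8* encodes a soluble phosphatase known to be induced by phosphate starvation. *PHM8* (YER037W) had a relative intensity of 0.432 in MTS-GFP, 0.275 in NES-GFP, 0.138 in GFPm3, 0.0987 in SS-GFP, 0.0538 in GFP-Deg, 0.102 in GFP and 0.149 in the empty vector. It was highest in MTS-GFP, with a deviation of 1.58, as were the 5 genes above, but its second highest array was NES-GFP, at 0.92, where *PHO84* was at -1.44, and its lowest was GFP-Deg, at -1.43.

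*PHO3*, which lies next to *PHO5*, encodes an acid phosphatase that acts on thiamine phosphates and is repressed by thiamine rather than by phosphate. *PHO3* (YBR092C) had a relative intensity of 0.542 in MTS-GFP, 0.61 in NES-GFP, 0.634 in GFPm3, 0.996 in SS-GFP, 3.15 in GFP-Deg, 2.03 in GFP and 3.65 in the empty vector. GFP-Deg, GFP and the empty vector were the 3 highest arrays, as for *PHO11* and *PHO12*. Its deviation was -1.21 in MTS-GFP, where that of *PHO5* was 1.62.

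The likeness between genes was measured as Pearson's r of the log2 level over the 7 arrays. It is a description of 7 points without replicates, on which each point is a different strain. Of the other 9 phosphate starvation genes, *SPL2* was most like *PHO84*, with r = 0.96. It was followed by *PHO5* (0.79), *PHM6* (0.77) and *PHO89* (0.71), whereas *PHO11* (0.16) and *PHO12* (0.01) were not like it. Without MTS-GFP and the empty vector, the 2 arrays farthest from the median *PHO84* level, r was 0.53 with *SPL2*, -0.45 with *PHO5*, 0.25 with *PHM6* and 0.67 with *PHO89*. Over the 5 arrays left, r changed little for *PHO89*, *SPL2* and *PHM6* were less like *PHO84*, and *PHO5* was not like it. *PHO8*, whose range was only 1.25-fold, had r = 0.79 with *PHO84* over the same 5 arrays. No relation is therefore read from the r of *PHO89* there.

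Outside the list, 420 genes, changed in at least 1 array and well above background on all 7, were compared. The 5 of them most like *PHO84* were *RCK1*, a protein kinase gene (0.83), *GRE1*, a stress-induced gene (0.77), *INO1*, the gene of inositol phosphate synthesis (0.77), YHR022C (0.76) and *HBT1* (0.74). All 5 had their highest value in MTS-GFP, from 1.37 for YHR022C to 2.25 for *INO1*. They were chosen by likeness to *PHO84*, which stood far highest in that array. *RCK1*, *GRE1*, YHR022C and *HBT1* also passed 2-fold in that array only. Their high values there thus follow from the choice, and nothing is read from them. Without MTS-GFP and the empty vector, their r lay between -0.28 and 0.42.

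*PHO11* and *PHO12* were alike, with r = 0.98, and 0.96 without NES-GFP and GFP-Deg, the 2 arrays farthest from the median *PHO11* level. *VTC1* was like *PHO11* as well, with r = 0.93, over a far smaller range. Of the 420 genes outside the list, the 5 most like *PHO11* were *ADH4*, an alcohol dehydrogenase gene (0.94), *PHO3* (0.89), the thiamine transporter gene *THI7* (0.88), the thiamine regulator gene *THI2* (0.85) and *VEL1* (0.84). Without NES-GFP and GFP-Deg, r was between 0.85 and 0.97 for these 5. Among pairs chosen after their values had been seen, *PHO3* and *PHO12* had r = 0.97, and 0.90 without the empty vector and GFP-Deg. *PHO5* had r = -0.09 with *PHO3* and 0.15 with *PHO12* over the 7 arrays. Without MTS-GFP and GFP, the 2 arrays farthest from the median *PHO5* level, these were 0.95 and 0.94. *PHO8*, whose range was small, had r = -0.95 with *PHO11* without NES-GFP and GFP-Deg. No relation is therefore read from the r of *PHO5* over the 5 arrays left.

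**Figure D5:**
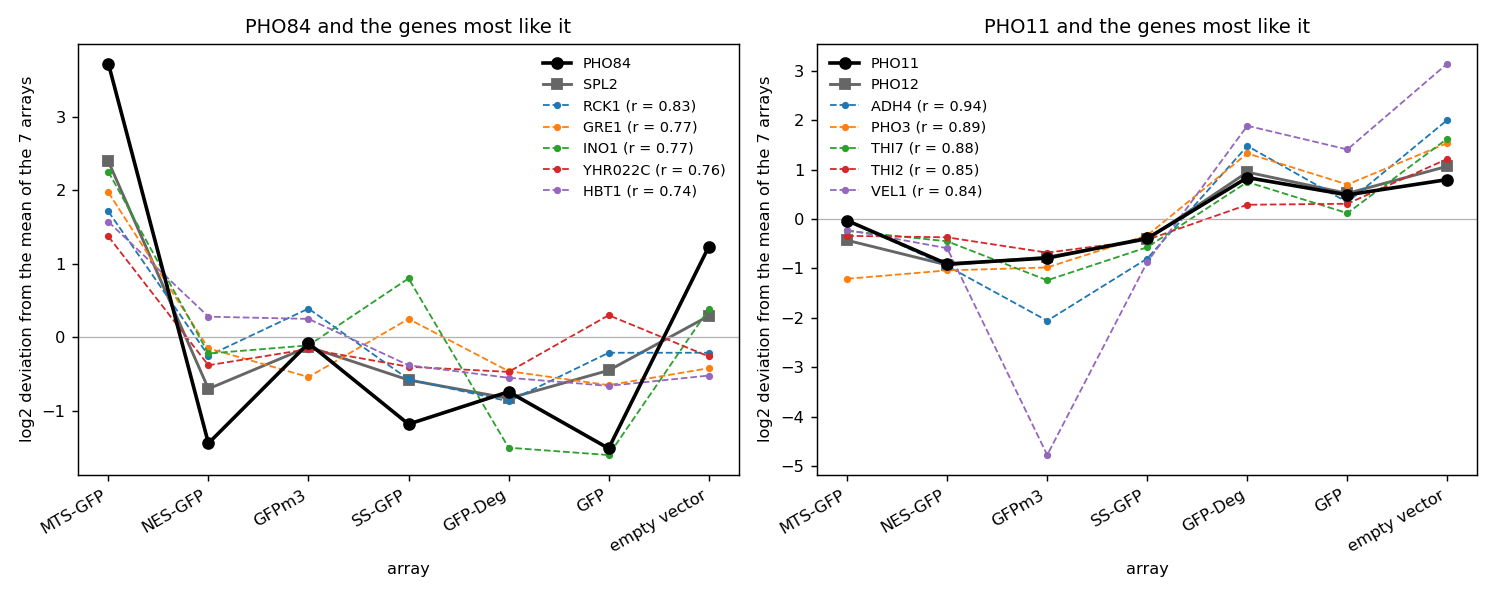
Deviation on the log2 scale (y axis) in the 7 arrays (x axis) of *PHO84* with *SPL2* and the 5 other genes most like it (left), and of *PHO11* with *PHO12* and the 5 other genes most like it (right). On the left the lines meet in high values in MTS-GFP and part elsewhere, and on the right GFP-Deg, GFP and the empty vector lie above the other 4 arrays for every line drawn. The lines were chosen by their likeness, so the high arrays they share follow from the choice.

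Other gene groups were also high in MTS-GFP or in the empty vector, and their part in the result was not tested. The general stress and thiamine lists were chosen with earlier results of these data known. Nothing is therefore read from the difference between their counts and the shares of all genes. In MTS-GFP, 10 of 10 general stress genes were higher by over 2-fold, against 2.76% of all genes, from 1.12 for *TSL1* to 1.99 for *HSP26*, with a median of 1.44. The medians of this list in the other arrays were 0.63 in NES-GFP, -0.62 in GFPm3, -0.09 in SS-GFP, -0.80 in GFP-Deg, -0.01 in GFP and -0.51 in the empty vector. NES-GFP had the second highest median of the stress genes, and its level of *PHO84* was, with that of GFP, the lowest of the 7 arrays. Whether the stress genes and *PHO84* are linked was not tested.

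In the empty vector, where *PHO84* and *PHO12* were high, 4 of 11 thiamine genes were higher by over 2-fold, against 0.498% of all genes, namely *THI4* (3.32), *THI7* (1.63), *THI20* and *THI73*. The plasmid markers were highest there as well. *URA3*, which the cells had from the plasmid only, deviated by -1.28 in MTS-GFP, 0.32 in NES-GFP, -1.48 in GFPm3, -0.44 in SS-GFP, 0.03 in GFP-Deg, 0.97 in GFP and 1.88 in the empty vector. For *LEU2*, the deviations were -1.05 in MTS-GFP and 1.13 in the empty vector. The RNA came from whole cultures, so a higher level in every cell and a higher level in some of the cells cannot be told apart.

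The genes next to the phosphate starvation genes on the chromosomes, chosen after the values had been seen, had a median deviation of 0.01 in MTS-GFP. Of 19 neighbouring genes, 0 were higher by over 2-fold in that array, a count near the 2.76% of all genes from which nothing is read. Beside *PHO84*, the tubulin gene *TUB3* was at -0.44 and YML122C, well above background on 5 of the 7 arrays, at 0.83. Of the 19 neighbours, 4 were changed in at least 1 array, against 8.96% of all genes, namely *PHO3*, YAR068W, YHR214C-E and *IMD2*, and *IMD2*, beside *PHO12*, was at -2.67 in MTS-GFP.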

How the data were processed

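RNA extracted by hot phenol was labelled with 1 dye, and 1 Agilent yeast array was hybridized per construct. The authors scanned the arrays and quantified them with Feature Extraction 10.10.1.1, and the deposited intensity of each spot is the background-corrected signal of that software, linear and not normalized between arrays. The deposited flags of each spot, a code of 0 or 1, mark outliers, saturation and signal well above background. The deposited value table was equal to these intensities for all 45209 spots of each array. The paper names agilp for its own processing.

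Control and outlier spots were dropped. Log2 intensities were centred on the 75th percentile of their array (3718.6 to 5625.9 intensity units). The 7 spots of a probe were averaged, then the probes of a gene. A gene was well above background on an array where at least 4 spots of each probe were. Of 6225 systematic names, 5737 matched the reference gene table, used for names and neighbours only. The analysis used Python 3.11.15, R 4.3.3 and limma 3.58.1. The scaling, the averaging of spots and the deviation from the mean were run on simulated arrays, without differences between cultures. The other steps were not run on simulated data.

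The members and lists were chosen with earlier results of these data known. Named were all members, list genes beyond 2-fold or needed beside a member, and the 5 genes most like *PHO84* and *PHO11*. Neighbours and some pairs were added after their values had been seen. No test across genes was made with 1 array per construct, and the number of arrays limits the precision. The alternatives were quantile and loess normalization, no scaling, normexp with an offset of 50 on the median signal, a background filter, the median of the spots, other averages and other thresholds. Promoter motifs and protein identity were not analysed here.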

Additional observations from a re-analysis of the deposited data

How the results depend on the processing

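The 5 higher calls in MTS-GFP held in 10 of 10 alternatives, with deviations of 2.87 to 4.47 for *PHO84*, 1.93 to 2.84 for *SPL2*, 1.81 to 2.37 for *PHO89*, 1.2 to 1.97 for *PHM6* and 1.41 to 1.89 for *PHO5*, and 5 genes also passed 3-fold. Among these alternatives, the background filter leaves the values of these genes as they are. The mean without MTS-GFP can only raise a positive deviation in MTS-GFP, and it gave the highest values of *PHO89*, *PHM6* and *PHO5*. Neither could end these calls, so neither is counted as support for them. No value called over 2-fold changed sign. The other calls were less stable. *PHO84* stayed lower by over 2-fold in 8 of 10 alternatives in NES-GFP, 5 of 10 in SS-GFP and 7 of 10 in GFP, and stayed higher in 9 of 10 in the empty vector. These losses came with a change of the average, except that normexp also ended the call in SS-GFP (-0.99), and the cause of that was not tested.

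Against the average, counts of the 10 genes moved as follows. A count is listed, here and against the empty vector, where it moved to or from 0 or by more than 1.5-fold. Smaller moves are left out. The shares of all genes under the alternatives were not computed, here or against the empty vector. The counts in this section therefore describe the processing, and nothing is read from them about the 10 genes. Around the median of the 7 arrays, 0 were lower in NES-GFP, 1 in SS-GFP and 0 in GFP, and 1 was higher in GFP-Deg. With the mean of the same slide, 2 were lower in NES-GFP, 0 in SS-GFP, 0 in GFP and 1 in the empty vector. With the mean of the 6 GFP arrays, 1 was lower in SS-GFP, 1 higher in GFP-Deg and 1 lower in the empty vector. With the mean of the 6 arrays other than MTS-GFP, an alternative chosen after seeing the data, 1 was lower in SS-GFP, 0 were lower in GFP and 1 was higher in the empty vector. Without scaling, which shifts the median of all genes by 0.30 in NES-GFP and -0.29 in GFP, 1 was lower in GFP-Deg, 2 in GFP and 1 in the empty vector. With normexp, 0 were lower in SS-GFP. At 1.5-fold, 6 were lower in NES-GFP, 3 in GFPm3, 2 in GFP and 1 in the empty vector, and 2 were higher and 2 lower in GFP-Deg. At 3-fold, 0 were lower in NES-GFP, SS-GFP and GFP, and 0 higher in the empty vector.

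The median deviation of the 10 genes was 0.80 in MTS-GFP with normexp and with the slide mean. Without scaling, it was -0.39 in NES-GFP, 0.03 in GFPm3, -0.07 in GFP-Deg and -0.28 in GFP. With the median as the average, it was -0.45 in NES-GFP and -0.15 in SS-GFP. With the slide mean, it was -0.53 in GFPm3 and -0.20 in SS-GFP. With the mean without MTS-GFP, it was 1.12 in MTS-GFP, -0.37 in NES-GFP, -0.05 in GFPm3, -0.18 in SS-GFP and 0.15 in GFP.

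Against the empty vector, quantile normalization left 0 higher in GFPm3 and GFP-Deg and 2 lower in GFP, loess left 0 higher in GFPm3, normexp left 0 higher in GFPm3 and GFP-Deg, and no scaling left 0 higher in GFP-Deg and 2 lower in GFP. At 1.5-fold, 2 were lower in MTS-GFP, 6 in NES-GFP, 5 in GFPm3 and 3 in GFP, where 1 was higher. At 3-fold, 0 were lower in MTS-GFP, 0 higher in GFPm3, 1 lower in SS-GFP, and 0 higher and 1 lower in GFP-Deg.

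With 1 array per construct, no fit with the slide as a block and no omission of a replicate was run. The search of promoters for motifs and the alignment of the acid phosphatases were not run.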
